A study of Bos grunniens with 9 samples.

Results

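Ribosome footprints from pregnancy ovaries were compared with those from estrus ovaries of the yak, Bos grunniens. The comparison used the 3 pregnancy and the 3 estrus libraries, which are 6 of the 9 libraries of the series, and they were taken by their stage labels alone. All animals were 6-year-old adults. Estrus ovaries were collected in August and pregnancy ovaries in December, within an hour of euthanasia, and were snap-frozen. The labels give no treatment or genetic change for either group. The remaining 3 libraries came from anestrus ovaries collected in April, and their levels are cited below for a few genes. Stage and month of collection cannot be told apart, since each stage was sampled in a month of its own. The libraries are labelled biological replicates but are not tied to named animals, and it is not stated whether the 3 libraries of a stage came from 3 animals or from pieces of fewer. A p-value or standard error therefore measures the spread between these samples, which may be technical. Neither the gestational age nor the presence of a corpus luteum is stated in the labels.

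In ribosome profiling, RNase digests the mRNA that no ribosome covers, and the protected fragments (footprints) are sequenced. A footprint count per gene therefore follows both the amount of mRNA and how densely ribosomes occupy it, and these cannot be told apart here without matched RNA-seq. In the ovary of cattle and related species, granulosa cells of the growing follicle turn androgens from theca cells into estrogen by aromatase, the product of CYP19A1. After ovulation both cell types give rise to the corpus luteum, which takes up cholesterol and makes the progesterone that maintains pregnancy. STAR carries cholesterol into the mitochondrion, CYP11A1 cuts its side chain, and HSD3B1 makes progesterone. Whole ovary pieces hold all of these cells beside stroma, vessels and leukocytes, and fewer cells of a type cannot be told apart from less RNA per cell.

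Depth differed between the libraries. The estrus libraries held 6107178, 11074729 and 6078238 assigned reads and the pregnancy libraries 9075671, 4969172 and 1468504, in the order of replicates 1, 2 and 3. A count of 3 reads, the smallest taken as detection, equalled 0.271 to 0.494 CPM (reads of a gene per 1e6 assigned reads) in estrus and 0.331 to 2.04 CPM in pregnancy, with the highest floor in pregnancy replicate 3. That library stood apart on the first principal component (score of 81.1, the other libraries from -42.5 to 16.6, 42.8% of the variance). Estrus replicate 3 stood apart on the second (53.2, against -35.3 to 8.29, 20.1% of the variance). Both libraries had the lowest summed level of the 22 granulosa cell markers in their stage, at 5428 CPM and 4510 CPM, where the remaining libraries ranged from 7156 to 16350 CPM. No pair of libraries agreed within sampling noise (chi-square per degree of freedom of at least 14.6). Log2 CPM correlated across genes at 0.878 to 0.957 between libraries of the same stage and at 0.855 to 0.947 between stages.

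Markers of the labelled tissue were present. All 22 granulosa, 11 theca and 18 luteal cell markers matched in the files had counts. Stroma and fibroblast markers were far more abundant, summing to between 59930 and 115900 CPM per library, where luteal markers summed to between 2411 and 5371 CPM. On the per-length FPKM scale (fragments scaled by transcript length and library size, as deposited) the collagen-binding matrix protein SPARC was the most abundant gene, at 21730 ± 2893 in estrus and 17690 ± 4237 in pregnancy (SD, n = 3 each). The collagen chain COL1A1 stood at 9592 ± 1463 FPKM in estrus and 6262 ± 770 FPKM in pregnancy. Of 19 oocyte markers, 3 were at 0 in all 6 libraries and 4 passed the filter on low counts. Placental markers summed to between 45.2 and 88.8 CPM, with PRP1, ASCL2 and HAND1 at 0 in all 6 libraries.

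No gene passed the test over all genes. Of 13033 genes with enough counts, 0 had an adjusted p under 0.05 in edgeR's quasi-likelihood test (0% called), and the smallest adjusted p was 0.71. At an unadjusted p under 0.05 there were 490 genes higher in pregnancy (3.76% of those tested) and 409 lower (3.14%), 899 in all. In 951 genes (7.3%) every pregnancy library was above every estrus library, and in 852 genes (6.54%) every one was below. DESeq2 called 23 of 16354 genes (0.141%), 13 higher and 10 lower in pregnancy, and the authors' deposited table gave the same 23 genes at a false discovery rate under 0.05 (0.132% of 17366). The p-values of the authors' deposited table matched those of DESeq2 within 0.001 in 100% of 17350 genes, so these are not separate lines of evidence. Of the 23 genes, 21 were tested in edgeR, and all 21 had an unadjusted p of at most 0.00727 there. In 22 of the 23 the estrus and pregnancy libraries did not overlap. Levels below are TMM-normalised CPM in the order of replicates 1, 2 and 3, and the value in brackets is edgeR's log2 fold change of pregnancy over estrus ± its standard error. For every gene so described the adjusted p over all genes was at least 0.71. Its unadjusted p was under 0.05 except for APOA1, CYP11A1, CYP17A1, PTGFR and CD74.

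FGG, which encodes one of the fibrinogen chains that form blood clots, had the largest fitted log2 fold change among the tested genes higher in pregnancy. It stood at 0.5, 0.3 and 2.6 CPM in estrus against 22.2, 152.2 and 208.6 CPM in pregnancy (6.94 ± 1.02), and at 0.7, 5.3 and 0.3 CPM in anestrus. All 3 pregnancy libraries were far above the other 6, although they differed among themselves by more than any estrus library differed from another. The partner chains of fibrinogen did not share this level. FGA had no count in any of the 6 libraries, and FGB ranged from 0.0 to 1.2 CPM. Albumin (ALB), the main liver plasma protein, ranged from 0.0 to 1.2 CPM and haptoglobin (HP) from 0.0 to 1.9 CPM. Of 20 hepatocyte markers, 5 (APOC3, FGA, HPX, CYP2E1 and ITIH1) were at 0 in all 6 libraries and 4 passed the filter. All 4 of those tested, FGG and APOA1 among them, had a positive difference. Their median was 0.81, where that of all genes was 0.01, and it was 0.46 without estrus replicate 3. The summed hepatocyte list, from 586 to 2017 CPM in estrus and from 2045 to 4263 CPM in pregnancy, was mostly APOA1, the apolipoprotein of high-density lipoprotein. APOA1 stood at 1030.4, 1656.0 and 369.3 CPM in estrus against 2298.4, 3645.8 and 1178.5 CPM in pregnancy (1.22 ± 0.56), with overlap between the stages. Its difference was 0.77 without pregnancy replicate 2. FGA, FGB, ALB, HP and APOA1 were chosen after their values were seen.

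Several other genes with no overlap were low in estrus. FABP6, an intracellular bile acid-binding protein known from the ileum, stood at 0.3, 0.5 and 1.2 CPM in estrus against 4.2, 12.4 and 7.4 CPM in pregnancy (3.57 ± 0.66). Anestrus libraries held 0.0 to 0.2 CPM of it, so pregnancy was the stage with the highest level. ABCC4, a pump that exports cyclic nucleotides and prostaglandins (ENSBTAG00000046041), stood at 0.3, 0.3 and 0.7 CPM in estrus against 2.4, 3.9 and 9.3 CPM in pregnancy (3.45 ± 0.75). SHISA2, of a family known from Xenopus to retain growth factor receptors in the endoplasmic reticulum, stood at 0.8, 1.7 and 1.0 CPM in estrus against 8.0, 5.8 and 6.8 CPM in pregnancy (2.5 ± 0.47). The spread within each stage of SHISA2 was small beside the gap between stages. GRIA1, a glutamate receptor subunit, had no read in estrus and 6, 8 and 15 reads in pregnancy, which is at least 8.97-fold higher than the floor of 3 reads per estrus library. It did not pass edgeR's filter on low counts, and its level of 9.3 CPM in pregnancy replicate 3 stood above the 0.6 and 1.6 CPM of replicates 1 and 2.

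Other genes were well expressed in both stages and higher in every pregnancy library. The neuropeptide NPY stood at 12.7, 6.0 and 8.8 CPM in estrus against 25.7, 30.3 and 44.6 CPM in pregnancy (1.85 ± 0.35). Anestrus libraries, at 16.8, 41.2 and 24.6 CPM, overlapped the pregnancy range. C4BPA, the alpha chain of a complement inhibitor, stood at 15.4, 6.6 and 4.1 CPM in estrus against 24.7, 31.9 and 65.6 CPM in pregnancy (2.19 ± 0.53). ECM1, a secreted matrix glycoprotein, stood at 7.8, 24.6 and 15.4 CPM in estrus against 44.9, 48.0 and 86.0 CPM in pregnancy (1.87 ± 0.43). For both, pregnancy replicate 3 was the highest library. Tighter groups were seen for ZDHHC2, an enzyme that attaches palmitate to proteins, at 25.7, 19.8 and 14.5 CPM in estrus and 51.7, 49.6 and 56.3 CPM in pregnancy (1.39 ± 0.25). GRK2, a kinase that turns off activated G protein-coupled receptors, stood at 21.3, 20.8 and 26.0 CPM in estrus against 44.6, 43.9 and 50.1 CPM in pregnancy (1.02 ± 0.20). C4BPA, ECM1 and GRIA1 are described because DESeq2 called them.

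**Figure D1:**
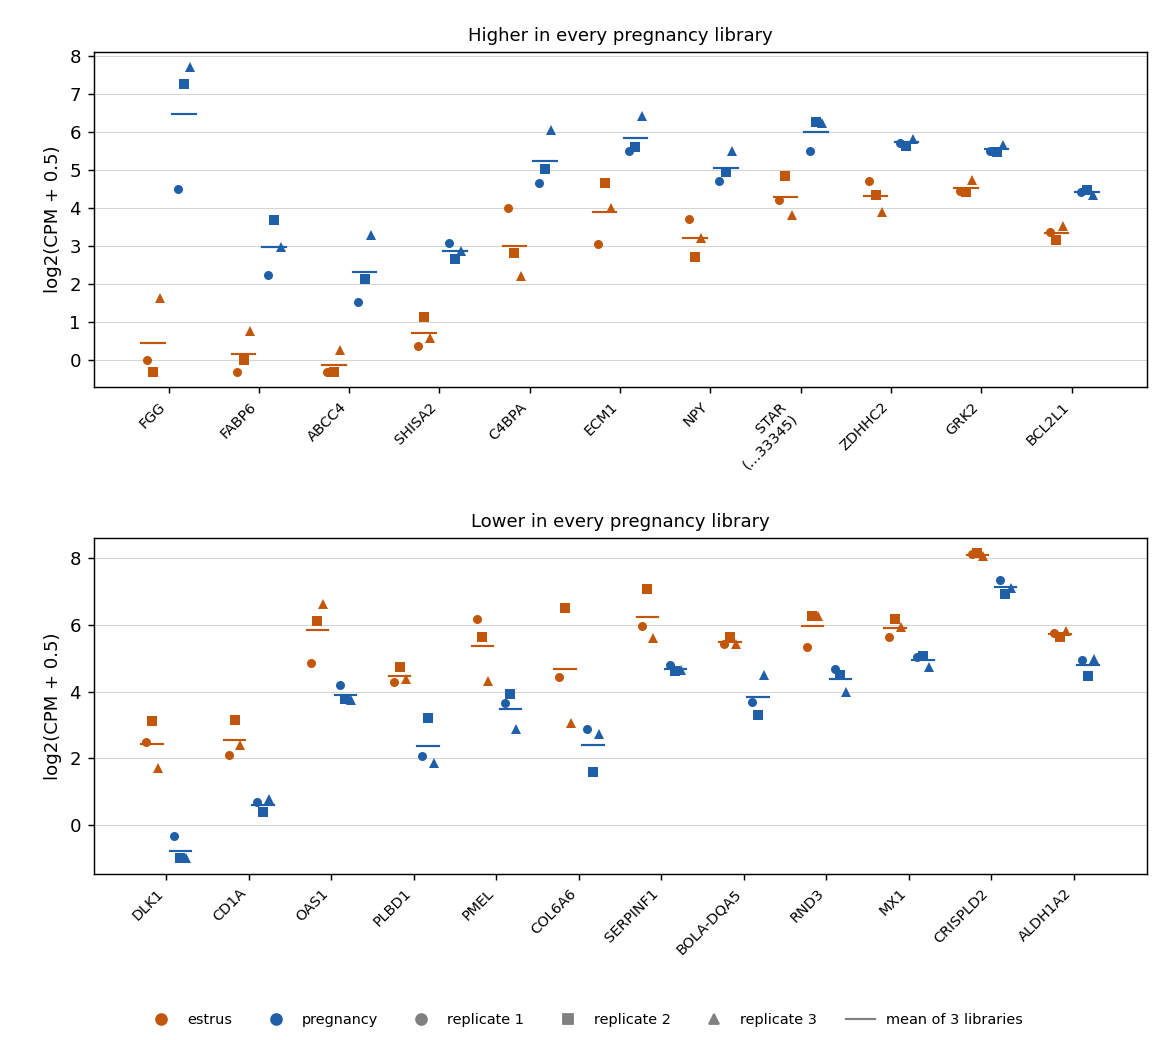
Levels of genes whose estrus and pregnancy libraries do not overlap, as log2(CPM + 0.5) on the vertical axis, with 3 estrus libraries in orange and 3 pregnancy libraries in blue, a marker shape for each replicate number and a bar for the mean. FGG spans 22.2 to 208.6 CPM in pregnancy against at most 2.6 CPM in estrus, while GRK2, ZDHHC2 and BCL2L1 have narrow groups.

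Genes of progesterone synthesis were higher in pregnancy at the step of cholesterol entry and at HSD3B1, while aromatase was lower. STAR has a pair of identifiers in the files, and reads could be split between copies, so each is given. ENSBTAG00000001608 stood at 24.6, 52.6 and 17.9 CPM in estrus against 59.3, 107.3 and 66.8 CPM in pregnancy (1.29 ± 0.41). ENSBTAG00000033345 stood at 17.9, 28.2 and 13.5 CPM in estrus against 45.2, 76.4 and 75.5 CPM in pregnancy (1.71 ± 0.33), and was among the DESeq2 calls. Neither overlapped between stages, and the anestrus libraries of the first, at 14.9, 58.5 and 14.4 CPM, lay in or near the estrus range. HSD3B1 stood at 77.2, 96.5 and 43.6 CPM in estrus against 163.5, 287.1 and 112.0 CPM in pregnancy (1.38 ± 0.40), again with no overlap. CYP11A1 stood at 447.3, 363.5 and 117.1 CPM in estrus against 602.5, 696.0 and 270.5 CPM in pregnancy (0.76 ± 0.50). It overlapped, because replicate 3 was the lowest library of each stage, and its difference was 0.37 without estrus replicate 3 and 0.50 without pregnancy replicate 2.

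CYP17A1, the theca enzyme that makes androgens, stood at 1056.3, 1307.2 and 291.7 CPM in estrus against 2002.3, 2644.2 and 334.2 CPM in pregnancy (0.91 ± 0.72). Replicate 3 was again the lowest of each stage, and the difference was 1.40 without pregnancy replicate 3, 0.49 without estrus replicate 3 and 0.40 without pregnancy replicate 2. CYP19A1 went the other way, at 91.0, 28.4 and 45.7 CPM in estrus and 21.2, 28.2 and 9.9 CPM in pregnancy (-1.42 ± 0.47). Its groups were separated only by 28.4 against 28.2 CPM, and without estrus replicate 1 the difference was -0.85. Anestrus held both extremes of CYP19A1, at 168.5, 0.7 and 8.8 CPM. AKR1C4, an aldo-keto reductase acting on steroids, stood at 7.9, 6.2 and 11 CPM in estrus against 3.9, 3.1 and 3.7 CPM in pregnancy (-1.23 ± 0.39).

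CYP21, the 21-hydroxylase that makes 11-deoxycorticosterone from progesterone in the adrenal, also had a pair of identifiers. ENSBTAG00000001443 stood at 2.4, 3.0 and 0.9 CPM in estrus against 7.5, 12.8 and 5.0 CPM in pregnancy (2.02 ± 0.55), and at 0.0 to 0.3 CPM in anestrus. ENSBTAG00000047039 stood at 0.0, 1.0 and 0.0 CPM in estrus against 5.8, 41.2 and 0.0 CPM in pregnancy and did not pass the filter on low counts. Reads of the 2 copies may be split between them. CYP11B1 and MC2R, which mark the adrenal cortex, were at 0 in all 6 libraries. Of the 22 tested genes of steroid hormone synthesis, 12 had a positive and 10 a negative difference, with a median of 0.19 where the median of all 13033 genes was 0.01. The list's median was -0.07 without estrus replicate 3 and 0.08 without pregnancy replicate 2, so its sign rested on estrus replicate 3. Of the 22, 2 were higher and 4 lower at an unadjusted p under 0.05 (background 3.76% and 3.14% of genes). CYP21 is not among the 22, since the list reads it at ENSBTAG00000047039, which did not pass the filter. STAR is counted once, at ENSBTAG00000001608.

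Among hormone receptors, PRLR, the prolactin receptor, stood at 1.7, 7.6 and 1.4 CPM in estrus against 18.9, 16.7 and 10.5 CPM in pregnancy (2.07 ± 0.61). Every pregnancy library was above every estrus library, and without estrus replicate 2 the difference was 3.30. LHCGR, the receptor of luteinizing hormone, stood at 65.8, 57.5 and 11.2 CPM in estrus against 67.1, 65.9 and 16.7 CPM in pregnancy, and FSHR, the receptor of follicle-stimulating hormone, at 28.9, 39.8 and 6.0 CPM against 17.7, 37.5 and 9.9 CPM. Both overlapped between stages. PTGFR, the receptor of the luteolytic prostaglandin, stood at 14.8, 10.5 and 9.8 CPM in estrus against 10.8, 17.1 and 50.1 CPM in pregnancy (1.07 ± 0.53), and its difference was 0.25 without pregnancy replicate 3. PGR, the progesterone receptor, stood at 63.5, 50.6 and 43.1 CPM in estrus against 23.8, 30.1 and 43.3 CPM in pregnancy (-0.72 ± 0.27). The top pregnancy library of PGR just passed the lowest estrus library.

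Of the 16 tested luteal cell markers, 13 had a positive difference, with a median of 0.60 where that of all genes was 0.01. The median was 0.29 without estrus replicate 3 and 0.35 without pregnancy replicate 2. In the list 3 were higher and 1 lower at an unadjusted p under 0.05 (background 3.76% and 3.14%), and 4 were higher with no overlap (background 7.3%). The 3 higher were STAR, HSD3B1 and PRLR, and the 1 lower was PGR. All are described above, and the list shares STAR, CYP11A1, HSD3B1, FDX1 and FDXR with the steroid list, so it is not a separate measure. Its mean log2(CPM + 0.5), centred on each gene's mean, was -0.10, 0.19 and -0.98 in estrus. In pregnancy it was 0.23, 0.67 and -0.004, with overlap. A pair of ligands of the transforming growth factor family had opposite signs. INHBA, the activin beta A subunit made by granulosa cells, stood at 1769.7, 213.9 and 670.8 CPM in estrus against 213.0, 490.0 and 208.0 CPM in pregnancy (-1.54 ± 0.68). That value rested on estrus replicate 1, without which it was -0.54. BMP6, a bone morphogenetic protein, stood at 5.9, 10.3 and 17.9 CPM in estrus against 36.3, 32.1 and 20.4 CPM in pregnancy (1.41 ± 0.41), with no overlap.

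**Figure D2:**
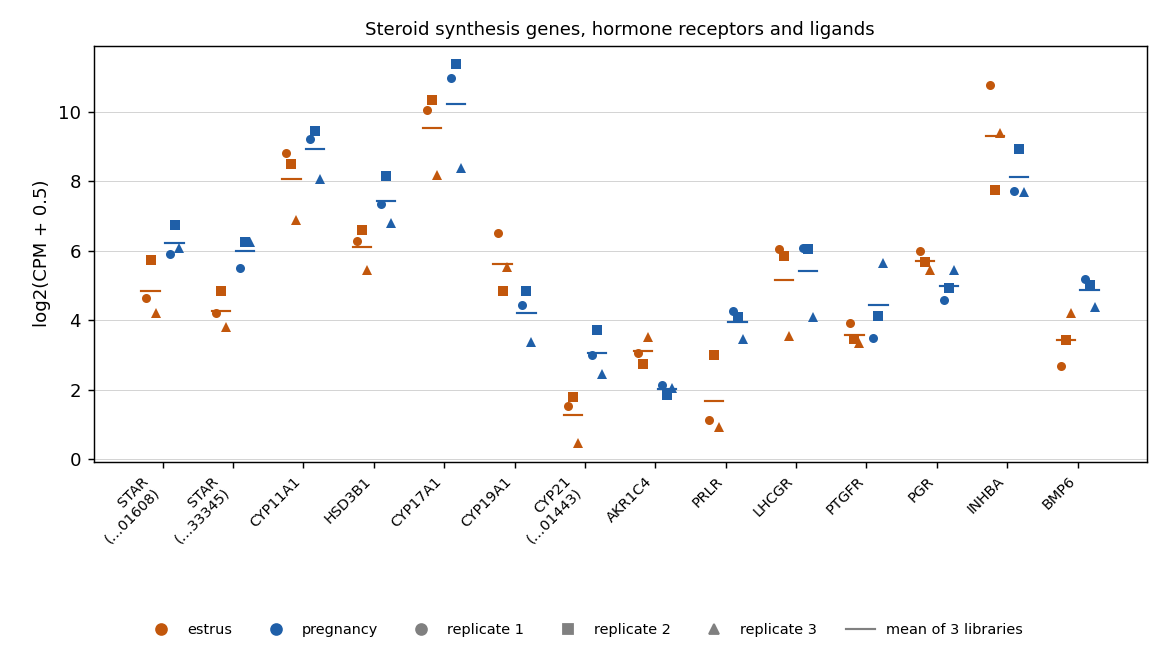
Levels of steroid synthesis genes, hormone receptors and 2 ligands as log2(CPM + 0.5) on the vertical axis in 3 estrus (orange) and 3 pregnancy (blue) libraries, with a bar for the mean and the last digits of the identifier where a symbol has several. Both STAR identifiers, HSD3B1, PRLR and BMP6 are higher in every pregnancy library, and replicate 3 is the lowest of each stage for CYP11A1, CYP17A1 and LHCGR.

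Among genes lower in pregnancy, DLK1, a membrane protein related to the Notch ligands, was almost absent from the pregnancy libraries. It had 32, 83 and 16 reads in estrus (5.1, 8.2 and 2.8 CPM) and 3, 0 and 0 reads in pregnancy. The ratio of estrus to pregnancy over the summed reads was 31.0, with a 95% counting interval of 10.4 to 152 that covers counting error only. Anestrus libraries held 1.5, 0.2 and 0.0 CPM of DLK1, so estrus had the highest level of the 3 stages. CFDP2 (ENSBTAG00000050567), with 35, 15 and 15 reads in estrus, had none in pregnancy, which is at least 3.44-fold lower at the floor of 3 reads per pregnancy library. It did not pass edgeR's filter and was described because DESeq2 called it.

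PLBD1, a phospholipase B-like protein, stood at 18.9, 26.2 and 20.5 CPM in estrus against 3.7, 8.7 and 3.1 CPM in pregnancy (-2.04 ± 0.40). RND3, a small GTPase that opposes RhoA signalling, stood at 40.0, 76.7 and 76.8 CPM in estrus against 24.9, 22.0 and 15.5 CPM in pregnancy (-1.60 ± 0.31). The secreted protein CRISPLD2 had the tightest estrus group of these genes, at 277.0, 282.0 and 265.5 CPM, against 163.1, 122.1 and 138.0 CPM in pregnancy (-0.96 ± 0.20). ALDH1A2, which makes retinoic acid, was similarly tight at 53.2, 48.8 and 55.9 CPM in estrus and 30.3, 21.6 and 30.9 CPM in pregnancy (-0.94 ± 0.22). SERPINF1, the pigment epithelium-derived factor that restrains vessel growth, stood at 62.7, 135.3 and 48.3 CPM in estrus against 27.2, 24.1 and 24.8 CPM in pregnancy (-1.70 ± 0.37), and its difference was -1.13 without estrus replicate 2. PMEL, the fibril protein of melanosomes, stood at 71.5, 49.5 and 19.5 CPM in estrus against 12, 14.8 and 6.8 CPM in pregnancy (-2.01 ± 0.47). The collagen VI chain COL6A6 rested on a single library, at 21.3, 90.7 and 7.8 CPM in estrus and 6.9, 2.5 and 6.2 CPM in pregnancy (-2.96 ± 0.85), with a difference of -1.49 without estrus replicate 2.

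Interferon-stimulated genes were lower in pregnancy, in 27 of 32 tested members. Their median difference was -0.33 where that of all genes was 0.01. The median was -0.50 without estrus replicate 1. Of the 32, 5 were lower and 0 higher at an unadjusted p under 0.05 (background 3.14% and 3.76%), and 7 were lower with no overlap (background 6.54% of genes). The mean of log2(CPM + 0.5) over the list, centred on each gene's mean, was -0.03, 0.30 and 0.32 in estrus and -0.11, -0.26 and -0.23 in pregnancy, so the stages did not overlap on this score. OAS1 (ENSBTAG00000039861), outside that list and a DESeq2 call, makes the activator of RNase L on sensing double-stranded RNA. It stood at 28.3, 69.0 and 97.6 CPM in estrus against 17.7, 13.2 and 13 CPM in pregnancy (-2.13 ± 0.42). Its anestrus libraries, at 28.3, 31.2 and 14.6 CPM, overlapped both stages. Another OAS1 identifier, ENSBTAG00000053807, overlapped between estrus and pregnancy, with a difference of -1.36 and an unadjusted p above 0.05. MX1, an antiviral GTPase, stood at 49.4, 72.2 and 60.2 CPM in estrus against 32.4, 33.4 and 26.0 CPM in pregnancy (-0.97 ± 0.22).

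ISG15, a ubiquitin-like modifier, stood at 17.5, 31.8 and 11.9 CPM in estrus against 7.0, 10.7 and 9.3 CPM in pregnancy (-1.20 ± 0.40), with a difference of -0.72 without estrus replicate 2. IFIT1, which binds viral RNA ends, had the same 8.7 CPM in each pregnancy library and 16.5, 18.3 and 10.5 CPM in estrus (-0.80 ± 0.30). EIF2AK2, the kinase PKR that halts translation on double-stranded RNA, stood at 37.5, 53.5 and 44.0 CPM in estrus against 30.3, 28.8 and 23.5 CPM in pregnancy (-0.70 ± 0.22). These genes kept all 3 pregnancy libraries below all 3 estrus libraries. IRF7, a transcription factor of the interferon response, did so at a low level, with 3.2, 7.8 and 6.6 CPM against 1.3, 2.9 and 3.1 CPM (-1.37 ± 0.55). The macrophage markers summed to between 780 and 1387 CPM in estrus and between 910 and 1565 CPM in pregnancy, with 0 of 15 at 0 in all 6 libraries, and their part in the result was not tested.

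Of the 14 tested genes of antigen presentation, 11 had a negative difference, with 3 lower and 0 higher at an unadjusted p under 0.05 (background 3.14% and 3.76%) and 4 lower with no overlap (background 6.54%). BOLA-DQA5, a class II alpha chain outside that list and a DESeq2 call, stood at 42.9, 49.1 and 42.8 CPM in estrus against 12.5, 9.3 and 22.3 CPM in pregnancy (-1.69 ± 0.32). Class II genes are a family of similar and highly variable copies, so reads may be split by allele. BOLA-DRA stood at 565.5, 568.6 and 505.4 CPM in estrus against 449.8, 277.2 and 326.8 CPM in pregnancy (-0.64 ± 0.24). BOLA-DMA, which loads peptide onto class II, stood at 41.9, 48.1 and 44.5 CPM in estrus against 35.5, 29.2 and 32.2 CPM in pregnancy (-0.47 ± 0.19). The invariant chain CD74 stood at 1306.3, 1572.6 and 1363.4 CPM in estrus against 1171.9, 775.3 and 1143.8 CPM in pregnancy (-0.46 ± 0.25), and its difference was -0.29 without pregnancy replicate 2. These 4 genes had no overlap between stages, while the class II beta chain BOLA-DQB overlapped (-1.90 ± 0.73). CD1A, which presents lipids and marks some dendritic cells, stood at 3.8, 8.3 and 4.8 CPM in estrus against 1.1, 0.8 and 1.2 CPM in pregnancy (-2.46 ± 0.54). The value of 1.2 CPM in pregnancy replicate 3 was below the floor of 2.04 CPM of that library. The median of the antigen presentation list was -0.29, which was -0.18 without estrus replicate 3. Leaving out pregnancy replicates 1 and 2 in turn gave -0.45 and -0.16, and it was -0.09 without both replicates 3.

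Genes of cell division and DNA replication were lower in pregnancy in 39 of 45 tested members, with a median difference of -0.63. At an unadjusted p under 0.05, 10 were lower and 1 higher (background 3.14% and 3.76% of genes), and 9 were lower with no overlap (background 6.54%). TK1, the thymidine kinase of S phase, stood at 34.6, 28.0 and 21.9 CPM in estrus against 12.6, 16.3 and 8.0 CPM in pregnancy (-1.15 ± 0.31). CCND2, a D-type cyclin that drives granulosa cell division in the mouse, stood at 112.8, 119.7 and 89.7 CPM in estrus against 71.1, 68.4 and 51.4 CPM in pregnancy (-0.75 ± 0.22), and its difference was -0.45 when all libraries were thinned to the shallowest. PCNA, the sliding clamp of DNA polymerase, stood at 131.5, 146.1 and 98.7 CPM in estrus against 87.2, 75.4 and 75.5 CPM in pregnancy (-0.66 ± 0.22). These 3 genes did not overlap, and neither did the mitotic kinase AURKA, at 14.6, 11.7 and 5.9 CPM against 5.4, 4.7 and 1.9 CPM (-1.31 ± 0.47).

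Of the 6 members with a positive difference, the one with an unadjusted p under 0.05 was another D-type cyclin, CCND3, at 33.7, 25.9 and 33.6 CPM in estrus and 49.9, 64.1 and 42.7 CPM in pregnancy (0.76 ± 0.23). The centred score of the division list was 0.63, 0.43 and -0.17 in estrus and -0.05, 0.08 and -0.92 in pregnancy, with replicate 3 the lowest of each stage and an overlap between stages. Granulosa cell markers also had their lowest score in replicate 3 of each stage, with scores of 0.72, 0.44 and -0.66 in estrus and -0.24, 0.47 and -0.72 in pregnancy, and 0 of the 22 markers at 0 in all 6 libraries. Their summed level ranged from 5428 to 16350 CPM in estrus and from 4510 to 12780 CPM in pregnancy, and their part in the result was not tested. The median of the division list was -0.39 without estrus replicate 1 and -0.46 without pregnancy replicate 3.

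Heat shock proteins and their helpers were lower in 23 of 24 tested members, with a median difference of -0.49 that was -0.46 without pregnancy replicate 3. In 12 members the pregnancy libraries were all below the estrus libraries (background 6.54% of genes), while 6 were lower and 1 higher at an unadjusted p under 0.05 (background 3.14% and 3.76%). The centred score was 0.04, 0.25 and 0.42 in estrus and -0.29, -0.18 and -0.24 in pregnancy, with no overlap. DNAJB4, a co-chaperone of HSP70, stood at 41.9, 57.4 and 114.5 CPM in estrus against 33.2, 22.7 and 37.1 CPM in pregnancy (-1.21 ± 0.38), and its difference was -0.70 without estrus replicate 3. DNAJA1, of the same family, stood at 218.3, 344.0 and 215.8 CPM in estrus against 178.0, 167.2 and 120.7 CPM in pregnancy (-0.74 ± 0.27), with -0.48 without estrus replicate 2. A further 3 members with no overlap follow. FKBP4, a co-chaperone of HSP90 in progesterone receptor complexes, stood at 226.5, 226.0 and 160.6 CPM in estrus against 140.1, 137.8 and 120.7 CPM in pregnancy (-0.62 ± 0.22). STIP1, which links HSP70 to HSP90, stood at 201.1, 253.3 and 173.5 CPM in estrus against 134.8, 156.5 and 96.6 CPM in pregnancy (-0.69 ± 0.25). HSF2, a heat shock transcription factor, stood at 39.1, 50.3 and 45 CPM in estrus against 31.4, 31.9 and 27.2 CPM in pregnancy (-0.56 ± 0.20). Its paralogue HSF1 was the 1 member with a positive difference (0.625 ± 0.262). For HSF1 every pregnancy library was above every estrus library.

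Translation factors were lower in 40 of 44 tested members by small amounts, with a median of -0.26, and 10 of them were lower with no overlap (background 6.54%). EIF5B, which joins the ribosomal subunits at the start codon, stood at 95.5, 138.5 and 107.8 CPM in estrus against 70.3, 71.3 and 51.4 CPM in pregnancy (-0.82 ± 0.23). The elongation factor EEF1A1 stood at 1158.0, 1191.7 and 1160.9 CPM in estrus against 869.8, 866.3 and 761.9 CPM in pregnancy (-0.49 ± 0.21). It has close copies, between which reads could be split. Of 34 tested genes of glycolysis and the hypoxia response, 25 were lower, with a median of -0.26, with 4 lower and 0 higher at an unadjusted p under 0.05 (background 3.14% and 3.76%). The glycolytic enzyme ENO1 stood at 768.8, 773.6 and 627.7 CPM in estrus against 501.8, 425.7 and 458.6 CPM in pregnancy (-0.65 ± 0.21), with no overlap. LDHA, which makes lactate, stood at 161.1, 151.9 and 70.2 CPM in estrus against 80.2, 63.0 and 30.3 CPM in pregnancy (-1.12 ± 0.40), with overlap through estrus replicate 3.

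**Figure D3:**
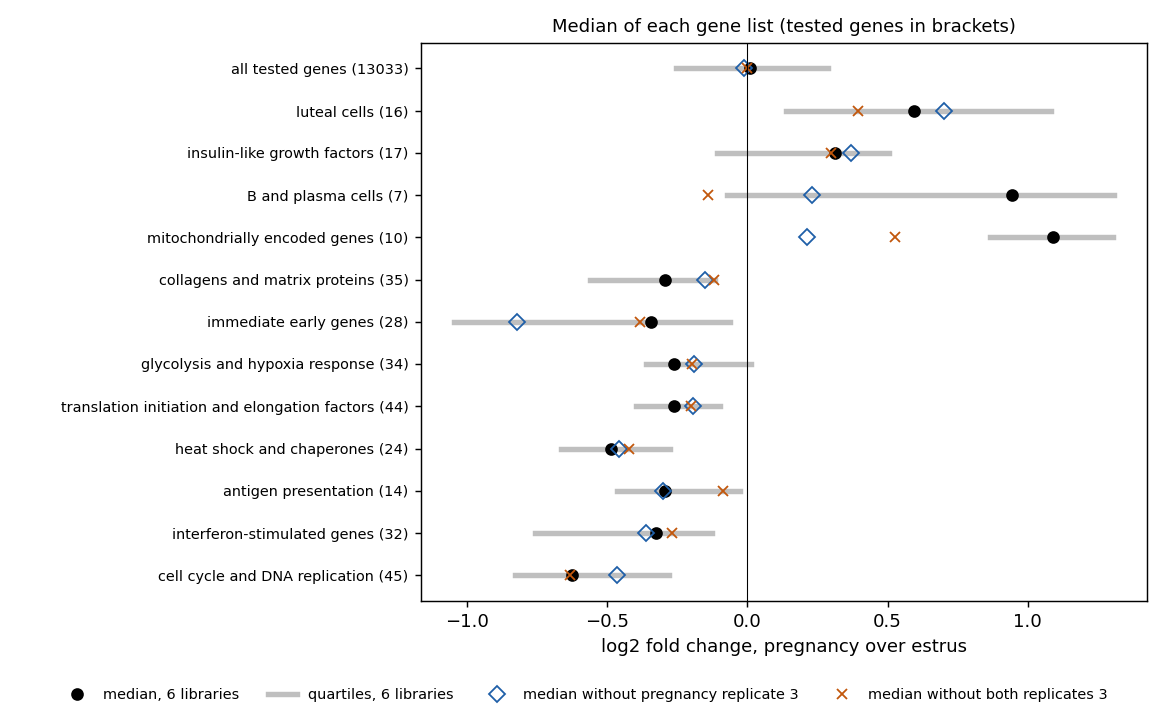
Median log2 fold change of pregnancy over estrus (horizontal axis) of each gene list, as black points with grey bars for the quartiles over genes, beside the median without pregnancy replicate 3 (open diamonds) and without both replicates 3 (crosses). The heat shock median stays between -0.49 and -0.42, while that of the 10 mitochondrially encoded genes drops from 1.09 to 0.21 without pregnancy replicate 3.

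Collagens and matrix proteins were lower in 29 of 35 tested members, with a median of -0.30 that was -0.15 without pregnancy replicate 3 and -0.47 without pregnancy replicate 2, and 7 were lower and 0 higher at an unadjusted p under 0.05 (background 3.14% and 3.76%). The collagen VI chain COL6A3 stood at 2853.8, 5709.5 and 5414.9 CPM in estrus against 2229.2, 2782.4 and 2024.0 CPM in pregnancy (-0.99 ± 0.33). FBN1, the main fibrillin of elastic microfibrils, stood at 1445.5, 2455.8 and 1833.3 CPM in estrus against 1190.4, 1134.5 and 817.6 CPM in pregnancy (-0.87 ± 0.29). Neither overlapped. FBN2, the second fibrillin, stood at 378.8, 179.8 and 198.2 CPM in estrus against 136.1, 141.5 and 81.1 CPM in pregnancy (-1.07 ± 0.34), with -0.65 without estrus replicate 1. The basement membrane laminin LAMA4 stood at 469.4, 354.8 and 558.5 CPM in estrus against 268.0, 270.2 and 331.8 CPM in pregnancy (-0.67 ± 0.24). Stroma and fibroblast markers, with 0 of 15 at 0, summed to between 83050 and 115900 CPM in estrus and between 59930 and 82590 CPM in pregnancy, and their part in the result was not tested. The marker list shares COL1A1, COL1A2, COL3A1 and FBLN1 with the matrix list, so its sum is not a separate measure.

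Genes that respond within minutes to growth factors or stress were lower in 21 of 28 tested members, with a median of -0.34 that turned to 0.11 without estrus replicate 3. Leaving out estrus replicate 1 gave -0.65, and leaving out pregnancy replicates 1, 2 and 3 in turn gave -0.18, -0.14 and -0.82. Leaving out both replicates 3 gave -0.38. The direction of the list therefore turned only when estrus replicate 3 alone was left out. CCN2, a matrix-associated target of YAP and of transforming growth factor beta, stood at 654.6, 1554.7 and 2074.2 CPM in estrus against 544.7, 504.4 and 629.5 CPM in pregnancy (-1.35 ± 0.39). The transcription factor EGR2 stood at 1.7, 7.1 and 7.1 CPM in estrus against 1.5, 1.0 and 0.6 CPM in pregnancy (-2.17 ± 0.66). Its level in pregnancy replicate 3 was below the floor of 2.04 CPM of that library. DUSP6, the phosphatase of ERK, stood at 28.1, 47.4 and 51.7 CPM in estrus against 27.8, 23.1 and 20.4 CPM in pregnancy (-0.82 ± 0.28). Estrus replicate 1 was close to the highest pregnancy library for CCN2, EGR2 and DUSP6. DUSP1, a related phosphatase, stood at 50.8, 92.9 and 247.5 CPM in estrus against 44.6, 52.1 and 66.2 CPM in pregnancy (-1.27 ± 0.51), and was -0.42 without estrus replicate 3. The centred score of the list was highest in estrus replicate 3 (0.98) and pregnancy replicate 3 (0.34) and lay between -0.49 and 0.12 in the other 4 libraries.

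Growth and survival genes showed differences within families. IGF1, the growth factor that amplifies the response of follicle cells to gonadotropins, stood at 107.1, 92.8 and 110.2 CPM in estrus against 42.5, 33.6 and 78.6 CPM in pregnancy (-1.03 ± 0.31). Its paralogue IGF2 went the other way, at 315.9, 217.7 and 215.8 CPM in estrus and 355.7, 435.2 and 337.9 CPM in pregnancy (0.59 ± 0.24). Neither overlapped between stages. IGFBP4, a binding protein that holds back IGF, stood at 375.8, 303.1 and 566.8 CPM in estrus against 715.7, 815.6 and 523.6 CPM in pregnancy (0.72 ± 0.30), with overlap through replicate 3 of each stage. Of 17 tested genes of the IGF list, 10 were positive, with a median of 0.31 that was -0.03 without pregnancy replicate 2.

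Among the anti-apoptotic members, BCL2L1 and BCL2 were higher in every pregnancy library. BCL2L1 was tight at 9.8, 8.4 and 11 CPM in estrus and 20.9, 21.8 and 19.8 CPM in pregnancy (1.1 ± 0.25). BCL2 stood at 4.8, 4.3 and 7.8 CPM in estrus against 9.9, 10.1 and 24.1 CPM in pregnancy (1.34 ± 0.45), with 0.86 without pregnancy replicate 3. The pro-apoptotic member BAD was also higher in every pregnancy library, with a difference of 0.73 and an unadjusted p above 0.05. The whole list of the BCL2 family and caspases, 12 positive and 11 negative of 23, had a median of 0.01, and it lay between -0.02 and 0.09 when 1 library was left out. In the list 4 were higher and 0 lower with no overlap (background 7.3% and 6.54%).

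Of the 23 DESeq2 calls, 3 were immunoglobulin variable segments, which are near-identical copies among which reads can be split. IGHV4-39 (ENSBTAG00000048048) stood at 13.2, 11.1 and 19.0 CPM in estrus against 49.7, 34.4 and 69.9 CPM in pregnancy (1.82 ± 0.32). IGLV1-40 (ENSBTAG00000050496) stood at 22.1, 14.3 and 7.9 CPM in estrus against 69.4, 35.0 and 155.4 CPM in pregnancy (2.52 ± 0.56). IGLV2-14 overlapped, at 5.6, 22.0 and 5.9 CPM in estrus and 101.6, 16.9 and 73.7 CPM in pregnancy (2.49 ± 0.71), and its anestrus libraries, at 50.3 to 95.3 CPM, were above all estrus libraries. The constant region gene IGHM had negative differences at both of its identifiers, -1.43 for ENSBTAG00000048049, where every pregnancy library was below every estrus library, and -0.81 for ENSBTAG00000001219, and was named after its values were seen. Neither had an unadjusted p under 0.05. Not all immunoglobulin heavy chain genes followed IGHM. IGHG2 had positive differences, 2.31 for ENSBTAG00000050723 and 1.035 for ENSBTAG00000048135, and that of Igh-1a was 1.648. For each of these, every pregnancy library was above every estrus library. The unadjusted p in edgeR was under 0.05 except for ENSBTAG00000048135, and the adjusted p was at least 0.71. IGHG2 and Igh-1a were likewise picked with the results known.

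Of 7 tested B and plasma cell markers, 5 had a positive and 2 a negative difference, and 3 were higher at an unadjusted p under 0.05 (background 3.76%). MZB1, a chaperone of antibody assembly, stood at 14.9, 12.6 and 2.6 CPM in estrus against 22.1, 22.0 and 27.9 CPM in pregnancy (1.23 ± 0.52), with 0.79 without estrus replicate 3. DERL3, of the degradation pathway of the endoplasmic reticulum, stood at 4.0, 1.7 and 0.7 CPM in estrus against 6.3, 5.1 and 5.0 CPM in pregnancy (1.38 ± 0.60), with 2.15 without estrus replicate 1. TNFRSF17, the plasma cell receptor BCMA, stood at 2.4, 0.6 and 0.2 CPM in estrus against 2.9, 4.3 and 8.7 CPM in pregnancy (2.24 ± 0.84), with 3.53 without estrus replicate 1. CD22, a B cell surface protein, had a negative difference of -1.27 with an unadjusted p above 0.05. The 12 B and plasma cell markers, of which PAX5 was at 0, summed to 131, 74.6 and 23.1 CPM in estrus and to 103, 93.7 and 241 CPM in pregnancy. Their median difference over 7 tested members was 0.95, which became 1.61 on leaving out estrus replicate 1 and 0.44 on leaving out estrus replicate 3, and was 0.23 without pregnancy replicate 3 and -0.14 without both replicates 3.

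Mitochondrially encoded genes, which mitochondrial ribosomes translate, were positive in 10 of 10 tested members, but the level followed 2 libraries rather than stage. Their centred score was 0.00, -1.77 and 0.17 in estrus and 0.10, -0.05 and 1.54 in pregnancy. COX1, a subunit of cytochrome c oxidase, stood at 382.0, 141.9 and 604.9 CPM in estrus against 471.8, 382.1 and 1277.5 CPM in pregnancy, with the lowest value in estrus replicate 2 and the highest in pregnancy replicate 3. The median difference of 1.09 was 0.21 without pregnancy replicate 3 and 0.63 without estrus replicate 2. Nuclear-encoded genes of the respiratory chain were negative in 58 of 73 members, with a median of -0.25 that was -0.09 without pregnancy replicate 3, -0.09 without estrus replicate 2 and -0.38 without estrus replicate 3.

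**Figure D4:**
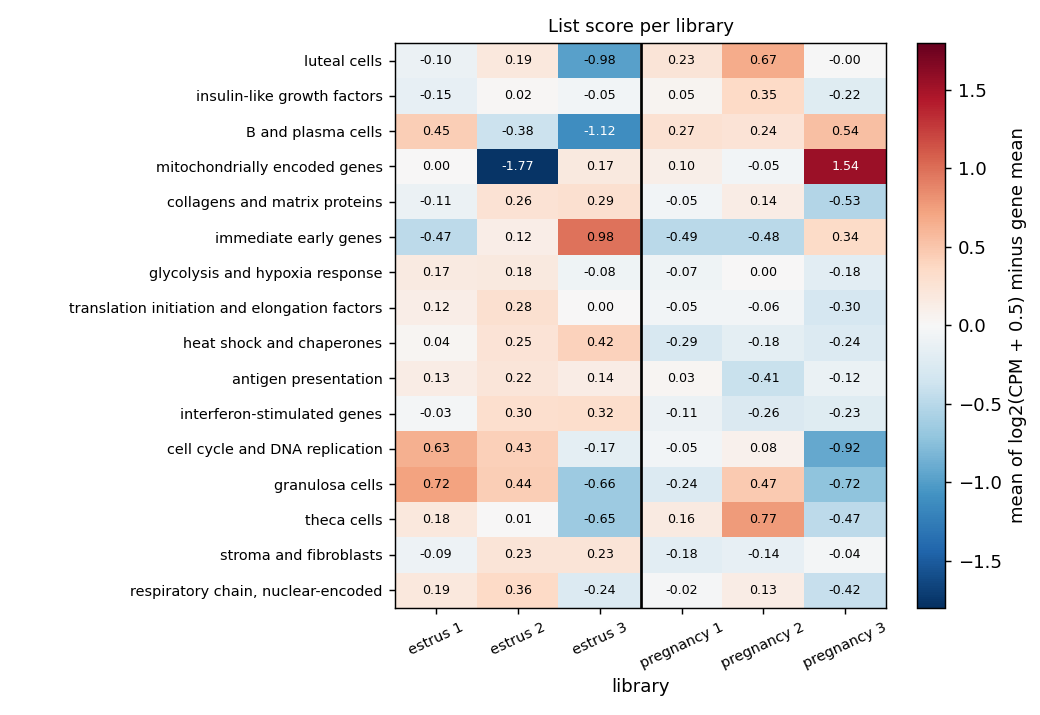
Score of each gene list (rows) in each library (columns), as the average of log2(CPM + 0.5) over tested members after subtraction of each gene's own average, with red above and blue below that mean. Heat shock and interferon lists are lower in all 3 pregnancy libraries, and mitochondrially encoded genes are at -1.77 in estrus replicate 2 and 1.54 in pregnancy replicate 3.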

How the data were processed

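The 3 estrus and 3 pregnancy footprint libraries were compared. Per the submitters' processing notes, Bowtie2 and RSEM were used. The deposited tables hold an estimated count per gene (all whole numbers), FPKM, and the authors' log2 fold changes, p-values and false discovery rates, while no genome build is stated. The authors' deposited FPKM values served only to set levels between genes. Identifiers are cattle Ensembl genes, with symbols as in the files, where 657 of 21652 genes have none. Counts were taken as deposited and assigned by column name to the labelled sample.

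Counts were filtered with filterByExpr (13033 genes kept, 99.8% of counts), scaled by TMM (factors 0.915 to 1.10) and tested with edgeR 4.0.16 in R 4.3.3 by the quasi-likelihood F test, with Benjamini-Hochberg adjustment over all tested genes and a threshold of 0.05. The biological coefficient of variation was 31.9%. CPM of estrus and pregnancy are on the scale of these 6 libraries and CPM of anestrus on that of all 9. The standard error is the absolute log2 fold change over the root of F. A symbol with several identifiers was read at the one with most counts unless an identifier is given. Alternatives used DESeq2 1.42.0, limma 3.58.1 and other settings. Scripts were tested on simulated data.

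Named genes were those with the smallest p in each direction, those called by DESeq2 or in the authors' deposited table, the leading and most abundant members of 42 gene lists (952 of 996 entries matched) and a core set. Members and lists were chosen with earlier results of these data known.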

Additional observations from a re-analysis of the deposited data

How the results depend on the processing

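The count of called genes was 0 in edgeR with all 9 libraries, RLE or upper quartile factors, library size alone, no filter or a stricter filter on low counts, thinning to the shallowest library, and in limma-voom. In the fit as reported 899 genes had an unadjusted p under 0.05. It was 23 with DESeq2 and 23 in the authors' deposited table. The labels give no pairing by replicate number. Between stages, deviations from the stage mean correlated at 0.0368, 0.308 and 0.307 for numbers 1, 2 and 3. Pairs of unlike number ranged from -0.313 to 0.135. Whether the numbers pair the samples cannot be told from these few libraries. With a replicate block 1 gene was called (FGG, adjusted p = 0.0272 in edgeR) and 1545 had an unadjusted p under 0.05, and the block changed no other call. limma-voom with quality weights gave 1658 such genes. Leaving out 1 library at a time gave 0 to 1 called genes, 503 to 1528 genes at an unadjusted p under 0.05 and 2687 to 4326 genes without overlap, fewer samples leaving more genes apart. The 1 call was H2BC3 without estrus replicate 3. Leaving out both replicates 3, chosen after the data were seen, gave 4 called genes, 1885 genes at an unadjusted p under 0.05 and 6331 without overlap. Library size alone moved the median of all genes from 0.01 to 0.10, and turned the medians of macrophage markers (-0.02 to 0.08) and of endoplasmic reticulum folding genes (-0.07 to 0.03) positive, with placental markers going from 0.00 to 0.08. The 83 named genes entered in the alternatives kept their sign in every one. Many of them were named for a small p or for no overlap between stages. A change of sign was therefore unlikely from the start, and the kept signs are no measure of stability. Pregnancy replicate 3, with 1468504 reads and a floor of 2.04 CPM, limits statements on low genes.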

Other observations

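Genes of cholesterol synthesis were lower in 18 of 23 tested members, with a median log2 fold change of -0.30, where that of all genes was 0.01. At an unadjusted p under 0.05 in edgeR, 1 was lower and 1 higher, near the background of 3.14% and 3.76% of genes. The enzyme NSDHL stood at 26.1, 27.4 and 18.1 CPM in estrus against 14.1, 15.2 and 17.9 CPM in pregnancy (-0.62 ± 0.26, SE), with a narrow gap between the stages. SREBF2, the transcription factor that turns on this pathway, had the opposite sign, at 119.3, 90.3 and 90.6 CPM against 138.8, 132.0 and 144.2 CPM (0.47 ± 0.20, SE). The list's median was -0.08 without estrus replicate 2 and -0.58 without estrus replicate 3. Estrus replicate 3 had the lowest centred score of the list, at -0.61.

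Of 18 tested endothelial markers, 6 were higher and 12 lower in pregnancy, with a median of -0.09 that ranged from -0.31 to -0.03 when 1 library was left out. CLDN5, a tight junction protein of vessel walls, stood at 43.7, 49.5 and 32.6 CPM in estrus against 77.5, 117.4 and 40.2 CPM in pregnancy (0.92 ± 0.36, SE), with overlap through replicate 3 of pregnancy and a difference of 0.51 without pregnancy replicate 2. ANPEP, an aminopeptidase listed among the theca markers, stood at 63.4, 46.1 and 202.9 CPM against 40.3, 33.8 and 42.7 CPM (-1.42 ± 0.51, SE), with the highest level in estrus replicate 3, without which the difference was -0.50. It had the most negative difference of the 11 tested theca markers, of which 8 were positive and 3 negative. The median of the theca list was 0.19, and -0.08 without pregnancy replicate 2. Markers of T and NK cells summed to between 76 and 103 CPM in estrus and to 106, 67.2 and 199 CPM in pregnancy, so pregnancy replicate 3 was the highest library. The adjusted p over all genes was at least 0.71 for each gene named here.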
